A study of Mus musculus with 6 samples.

Results

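A set of 10 genes that carry bile acids and other bile constituents into and out of the hepatocyte were followed in mouse liver RNA-seq counts: the uptake carriers Slc10a1, Slco1a1 and Slco1b2, the exporters of the canalicular membrane Abcb11, Abcb4, Abcc2, Abcg5 and Abcg8, and the exporters of the basolateral membrane Abcc3 and Abcc4. They were taken by gene symbol, and all 10 were matched to Ensembl IDs among the 43346 gene IDs of the tables. Livers in which hepatocytes lack both Ctnnb1 (β-catenin) and Jup (γ-catenin), labelled DKO for double knockout (3 libraries), were set against livers labelled Control (3 libraries). All were livers of C57BL6 mice aged 3 months. The labels give no Cre driver and no sex, and do not say that each library came from a separate mouse, so the spread behind each p-value is that between libraries and may be technical. The study's question was how losing the pair of catenins affects hepatocyte polarity, on which the separation of the uptake and export membranes rests.

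Bile flow depends on a division of labour between both faces of the hepatocyte. Carriers of the sinusoidal membrane take bile acids and organic anions from portal blood, and ATP-driven pumps of the canalicular membrane send bile acids, phospholipid, conjugates and sterols into bile. When bile acids accumulate, the nuclear receptor FXR (Nr1h4) is known to raise the bile salt export pump and to lower uptake, and pumps of the basolateral membrane return bile acids and conjugates to blood.

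Promoter sequence from RefSeq on GRCm38.p6, the mm10 assembly, was at hand for 9 of the 10 genes, as windows of 250 bases before to 50 bases after a start site. The windows of Abcb11 and Slco1b2 are shown because they hold the half-sites AGGNCA and TGACCT with 1 base between them, a form of the inverted repeat that FXR binds, which was searched on both strands and is in capitals. Only 12 of 32851 windows of this length in the genome (0.0365%) held it, and 2 of these 12 belonged to the transporters. These counts hold for the chosen form of the repeat and are not a test of enrichment. The Abcb11 window is chr2:69342567-69342866 on the minus strand, with the last base of the repeat 51 bases before the start site, and the Slco1b2 window is chr6:141629268-141629567 on the plus strand, with the last base 76 bases before it.
Abcb11: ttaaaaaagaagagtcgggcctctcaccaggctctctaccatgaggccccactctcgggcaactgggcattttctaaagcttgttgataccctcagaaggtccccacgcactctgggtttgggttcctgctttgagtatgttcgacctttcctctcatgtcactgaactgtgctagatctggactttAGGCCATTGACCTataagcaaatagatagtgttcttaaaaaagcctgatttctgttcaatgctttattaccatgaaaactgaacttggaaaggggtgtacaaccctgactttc
Slco1b2: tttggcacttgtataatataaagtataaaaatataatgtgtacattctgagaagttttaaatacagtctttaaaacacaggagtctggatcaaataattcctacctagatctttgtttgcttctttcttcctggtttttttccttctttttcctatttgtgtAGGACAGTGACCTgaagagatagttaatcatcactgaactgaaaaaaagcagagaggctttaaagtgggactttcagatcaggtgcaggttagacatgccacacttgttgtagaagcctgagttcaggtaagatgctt

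The windows of Abcg5 and Abcg8 are shown because the 2 half-transporter genes lie head to head and share them. They are chr17:84682962-84683261 on the minus strand for Abcg5 and chr17:84682871-84683170 on the plus strand for Abcg8, and 209 bases (chr17:84682962-84683170) belong to both. Capitals mark AGATAA, a core that GATA factors bind, on either strand, which is in 11.2% of all windows. The same 3 matches stand in both windows on opposite strands. The motif CAAAGTCCA, read by HNF4A and searched on both strands, was in 0.475% of all windows and in 0 of the 12 windows of the transporters. These matches describe letters and are not evidence of binding.
Abcg5: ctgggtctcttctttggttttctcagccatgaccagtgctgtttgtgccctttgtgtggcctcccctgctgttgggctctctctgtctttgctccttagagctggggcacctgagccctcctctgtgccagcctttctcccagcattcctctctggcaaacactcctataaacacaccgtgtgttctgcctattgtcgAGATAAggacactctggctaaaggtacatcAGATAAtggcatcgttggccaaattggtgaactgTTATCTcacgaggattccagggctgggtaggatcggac
Abcg8: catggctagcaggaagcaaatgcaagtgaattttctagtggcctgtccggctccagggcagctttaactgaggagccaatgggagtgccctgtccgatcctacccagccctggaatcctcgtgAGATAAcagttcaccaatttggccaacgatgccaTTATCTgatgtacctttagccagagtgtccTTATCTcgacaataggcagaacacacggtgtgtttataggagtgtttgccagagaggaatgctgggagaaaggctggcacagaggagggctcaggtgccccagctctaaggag

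The libraries of the groups differed widely in depth and content. Reads assigned to genes numbered 309731 to 1491237 in DKO libraries and 12320487 to 15869639 in Control libraries, and were 2.68% to 4.74% of all reads in DKO against 33.3% to 34.9% in Control. Albumin (Alb) took 0.0933% to 3.08% of gene reads in DKO libraries and 6.58% to 7.66% in Control libraries, so hepatocyte transcripts were scarce in DKO libraries 1 and 3 in particular. Mitochondrial genes took 6.27%, 14.4% and 62.7% of gene reads in DKO replicates 1, 2 and 3 and 6.34% to 6.57% in Control, so DKO replicate 3 stood apart. A state of the DKO livers and a failed preparation of their libraries cannot be told apart here, which holds for every DKO value. Ctnnb1 had 0, 52 and 65 reads in the DKO libraries and 2945, 2896 and 2650 in Control (adjusted p = 0.171 in edgeR's quasi-likelihood test), and Jup had 6, 1 and 11 against 339, 270 and 196 (adjusted p = 0.0847). Neither targeted gene passed the threshold of 0.05, and reads from exons that were not deleted would count towards either gene. Ctnnb1 passed as lower without a filter (adjusted p = 0.00893 in edgeR) and without DKO replicate 1 (0.0119). Jup passed as lower in DESeq2 (adjusted p = 0.0130), without a filter (0.0391), without DKO replicate 1 (0.0434) and after subtraction of expected background reads (0.0104), but passed as higher when scaled on abundant liver genes (log2 fold change 3.90, adjusted p = 0.0436), so the direction of a deleted gene depended on the scale. The Jup reads of DKO replicates 1, 2 and 3 were fewer than the 10.6, 9.34 and 20.4 expected from background, so its fold changes rest on reads at or below that expectation. For Ctnnb1 10.3, 7.56 and 18.8 reads were expected, and its 52 and 65 reads in replicates 2 and 3 lay above them. Directions are given between the libraries labelled DKO and those labelled Control. Fewer hepatocytes and less transcript per hepatocyte cannot be told apart in bulk tissue.

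In Control livers the uptake carriers were the most abundant of the 10 transcripts per length. Levels are given here as CPM, read counts scaled to library size with TMM factors, divided by the exonic length in kb. Slc10a1 stood at 339 ± 27.0 CPM per kb, Slco1b2 at 269 ± 62.2 and Slco1a1 at 217 ± 6.48 (SD, n = 3 libraries each). The ranges of Slc10a1 and Slco1b2 overlapped, as did those of Slco1b2 and Slco1a1. The bile salt export pump Abcb11 followed at 123 ± 8.14 CPM per kb and the conjugate pump Abcc2 at 71.8 ± 3.63, each apart from its neighbours in every Control library. Abcg5 at 47.2 ± 3.45, Abcc3 at 45.1 ± 1.39 and Abcb4 at 38.0 ± 10.05 CPM per kb overlapped in neighbouring ranges. Abcg8 lay below them at 29.4 ± 2.04, and Abcc4 was nearly silent at 0.228 ± 0.0526 CPM per kb, with 24, 13 and 13 reads in Control replicates 1, 2 and 3.

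**Figure D1:**
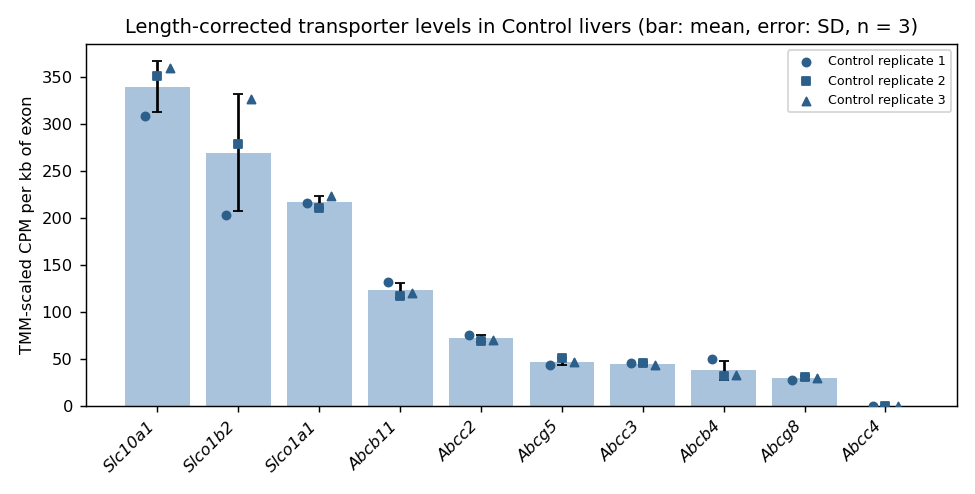
Length-corrected level (TMM-scaled CPM per kb of exon) of the 10 transporters in the 3 Control libraries, with bars at the mean, error bars of 1 SD and 1 symbol per library. The 3 uptake carriers lie above 200 CPM per kb in all Control libraries and Abcc4 lies near 0.

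The Control livers differed most among themselves in Abcb4, Slco1b2 and Abcc4. Abcb4, the flippase that brings phosphatidylcholine into bile, had 465, 299 and 305 CPM in Control replicates 1, 2 and 3, a coefficient of variation of 26.4%. Slco1b2, a carrier of organic anions and unconjugated bile acids, ran the other way, at 1000, 1373 and 1608 CPM (23.1%). Replicate 1 was thus the highest Control library for Abcb4 and the lowest for Slco1b2. Nr0b2, the FXR-induced repressor SHP, was also highest in replicate 1, with 65.8, 25.2 and 30.5 CPM. The remaining members apart from Abcc4 (23.1%, on few reads) varied by 2.99% to 7.94%. Summed markers of sinusoidal endothelial cells ranged from 268 to 473 CPM over the same Control libraries and were likewise highest in replicate 1. Their part in these differences was not tested.

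Of the 10 transporters 9 had less CPM in every DKO library than in every Control library, and Abcc4 had more. Separation of this kind was common in these data, with 36.4% of the 15561 tested genes lower and 34% higher without overlap. Read against the background of calls, 0 of 10 transporters passed as lower (edgeR quasi-likelihood, adjusted p under 0.05), where 12.8% of tested genes did, and 1 of 10 passed as higher, where 31.3% did. Of the 9 lower genes Abcb11 alone had an unadjusted p under 0.05 (0.0262 in edgeR). All 10 genes passed the filter on low counts, which works on reads relative to library size. Abcc4 passed it only through the DKO libraries, so its being tested rested on the group where it was high. The median log2 fold change was -2.57 over the 10 transporters and -0.08 over all tested genes. The summed level of the 10 was 902 ± 1095 CPM in DKO and 5314 ± 249 CPM in Control (SD, n = 3 each; two-sided p = 0.1 by exact permutation over 20 arrangements, the smallest p that 3 against 3 libraries allow). DKO replicate 2 carried the DKO mean, with 2164 CPM against 196 and 347 CPM in DKO replicates 1 and 3. Without it the log2 ratio of the group means was -4.29, in place of -2.56.

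**Figure D2:**
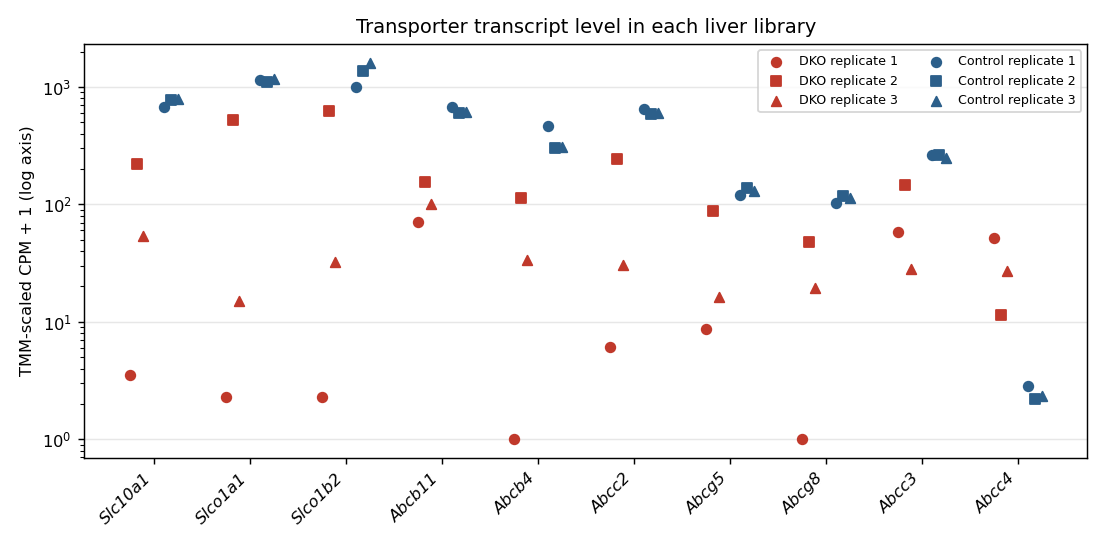
TMM-scaled CPM plus 1 on a log axis for each transporter, with DKO libraries left of Control libraries and 1 symbol per replicate. For 9 genes the DKO symbols lie below the Control symbols, with DKO replicate 2 nearest to Control, and for Abcc4 they lie above.

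Of the uptake carriers, Slc10a1 (NTCP, the sodium-dependent carrier of conjugated bile acids; chromosome 12, 80953183 to 80968705, mm10) had 2, 128 and 49 reads in DKO replicates 1, 2 and 3, and 8892, 8468 and 7591 in Control. On the CPM scale these were 2.55, 220 and 53.0 in DKO and 679, 772 and 789 in Control. The groups did not overlap, with the highest DKO library 3.08-fold below the lowest Control library. Its log2 fold change was -3.03 (SE 1.41, adjusted p = 0.105 in edgeR). Slco1a1 (OATP1A1, an organic anion carrier known to be higher in male than in female mouse liver; chromosome 6, 141907282 to 141946962) had 1.27, 521 and 14.1 CPM in DKO replicates 1, 2 and 3, against 1141, 1111 and 1179 CPM in Control. Its DKO libraries spread widely while its Control libraries varied by 2.99%, and the log2 fold change was -2.68 (SE 1.75, adjusted p = 0.221 in edgeR), or -7.35 without DKO replicate 2. Reads of the Y-linked Ddx3y numbered 29, 80 and 30 in DKO and 937, 725 and 630 in Control, and Xist had 1, 0 and 6 in DKO and 1, 1 and 0 in Control, so both groups held Y-linked transcripts. Slco1b2 (OATP1B2; chromosome 6, 141629518 to 141686646) had 1, 363 and 29 reads in DKO replicates 1, 2 and 3 and 13106, 15064 and 15477 in Control, and its log2 fold change of -2.60 had an SE of 1.73 (adjusted p = 0.228 in edgeR) and was -6.49 without DKO replicate 2. Slco1a1 and Slco1b2 belong to a family of close relatives, and reads aligning to more than 1 place were not counted to a gene.

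Among the canalicular pumps, Abcb11 came nearest to the threshold. Abcb11 (BSEP, the bile salt export pump; chromosome 2, 69238282 to 69342616) had 70.0, 155 and 101 CPM in DKO replicates 1, 2 and 3 and 679, 599 and 617 CPM in Control. Its DKO libraries were the most even of the 10 genes, with a coefficient of variation of 39.6% against 70.4% to 166% for the other members. The log2 fold change was -2.54 (SE 0.97, adjusted p = 0.0572 in edgeR). Its exons share 155 bases (3.01%) with 2 predicted genes, and because the strand setting of the counting is not given in the sources used here, reads of overlapping genes cannot be told apart.

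Abcb4 (MDR2; chromosome 5, 8893717 to 8959231) had 0, 66 and 30 reads in DKO replicates 1, 2 and 3 and 6097, 3286 and 2932 in Control, and the fitted log2 difference was -2.88 (SE 1.41, adjusted p = 0.120 in edgeR). Abcc2 (MRP2, which exports bilirubin glucuronides and glutathione conjugates; chromosome 19, 43782192 to 43840740) had 5.09, 241 and 29.2 CPM in DKO and 648, 590 and 599 CPM in Control. The groups were apart, and the fitted log2 difference was -2.75 (SE 1.36, adjusted p = 0.124 in edgeR). Abcg5 and Abcg8 form the heterodimer that secretes cholesterol and plant sterols into bile. Abcg5 (chromosome 17, 84658234 to 84683011) had 6, 51 and 14 reads in DKO replicates 1, 2 and 3 and 1552, 1505 and 1233 in Control, and Abcg8 (chromosome 17, 84676302 to 84700333 in the annotation, which runs into Abcg5) had 0, 27 and 17 against 1336, 1283 and 1078. Their log2 fold changes were -1.82 (SE 0.91, adjusted p = 0.125 in edgeR) for Abcg5 and -2.38 (SE 1.07, adjusted p = 0.0955) for Abcg8. The pair shares 82 annotated exonic bases. Within a library the ratio of Abcg5 to Abcg8 reads was 1.89 in DKO replicate 2 and 0.824 in DKO replicate 3, against 1.14 to 1.17 in Control, where it was nearly constant. In DKO replicate 3 neither gene could be told from background, with 9.82 reads expected for Abcg5 and 12.4 for Abcg8.

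The basolateral pumps parted in direction. Abcc3 (MRP3, an exporter of glucuronides and bile acids to blood; chromosome 11, 94343295 to 94392997) had 57.3, 144 and 27.0 CPM in DKO replicates 1, 2 and 3 and 261, 262 and 248 CPM in Control. The fitted log2 difference was -1.76 (SE 0.88, adjusted p = 0.126 in edgeR), the smallest of the 9 lower fitted changes. Abcc4 (MRP4, which exports bile acids together with glutathione, and cyclic nucleotides; chromosome 14, 118482692 to 118706219) was called higher relative to library size, on reads that were at the expected background in 2 of 3 DKO libraries. It had 40, 6 and 24 reads in DKO replicates 1, 2 and 3 and 24, 13 and 13 in Control, which is 50.9, 10.3 and 26.0 CPM in DKO and 1.83, 1.18 and 1.35 CPM in Control. Read numbers were thus alike between the groups, and the difference lay in the depth they were scaled by. The log2 fold change was 4.31 (SE 0.80, adjusted p = 0.00195 in edgeR). The call held in all 14 alternatives that gave Abcc4 a value (adjusted p at most 0.0220), none of which removed background reads. From background 12.6, 9.30 and 23.1 reads were expected in DKO replicates 1, 2 and 3, and after their subtraction too few were left for Abcc4 to be tested.

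Which transporters passed as lower depended on the DKO libraries and on the scaling. Without DKO replicate 2, 9 of the 10 passed as lower (26.7% of tested genes did), and without DKO replicate 1, 4 passed, which were Slc10a1, Abcb11, Abcb4 and Abcg8 (22% of tested genes). With DESeq2's size factors in the edgeR test 6 passed (23% of tested genes), and in DESeq2 itself 7 (30.7%). In limma-voom Abcb11 alone passed (9.77%), with the replicate number as a block Abcg8 alone (14%), and without a filter on low counts 9 did (15.4%). Subtracting background reads left 0 of 9 lower and 0 of 9 higher, where 20.8% of genes were lower and 17.3% higher in edgeR, and Abcb11 alone had an unadjusted p under 0.05. Scaling on 163 abundant liver genes shifted the median fold change over all genes by 4.76 log2 units, with 0 transporters lower and 1 higher (0.546% and 62.5% of tested genes). On that scale Abcb11, Abcc2, Abcg5, Abcg8 and Abcc3 turned to log2 fold changes of 2.70, 0.00749, 1.94, 0.56 and 3.59, while Slc10a1, Slco1a1, Slco1b2 and Abcb4 stayed below 0, and none of these 9 passed in edgeR or had an unadjusted p under 0.05. Over all genes the TMM scale gave 4871 higher and 1992 lower, DESeq2's size factors 5045 and 3577, and the abundant-gene scale 9718 and 85.

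**Figure D3:**
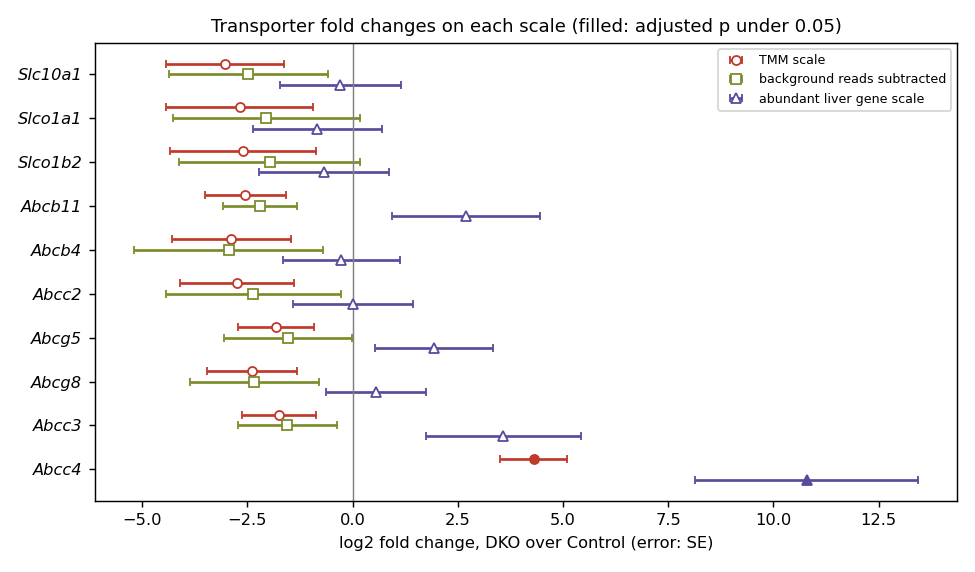
Log2 fold change of each transporter (DKO over Control) with its SE, on the TMM scale, after subtraction of expected background reads and on the abundant liver gene scale, with filled symbols where the adjusted p was under 0.05. Abcc4 alone is filled, on the TMM and abundant-gene scales, and has no value after subtraction.

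Reads of the transporters were set against the reads expected from background, estimated for each DKO library by GC content and exonic length from 8600 nearly silent protein-coding genes (10 Control reads or fewer in sum). In DKO replicate 2 the 10 genes had 1258 reads where 60.7 were expected, and the 95% Poisson intervals of 9 genes lay above their own expectation. Abcc4 was the exception, with 6 reads (2.20 to 13.1) against 9.30. In DKO replicate 3 the sum was 321 against 150, and 4 genes lay above, namely Slc10a1 with 49 reads against 6.58, Slco1b2 with 29 against 4.68, Slco1a1 with 13 against 5.005 and Abcb11 with 93 against 13.3. The 24 Abcc4 reads there compared with 23.1 expected. In DKO replicate 1 the sum was 154 against 84.6, and the reads were concentrated in Abcb11 (55 against 8.16), Abcc3 (45 against 10.4) and Abcc4 (40 against 12.6), while Slc10a1, Slco1a1 and Slco1b2 had 2, 1 and 1. Abcb4, Abcc2 and Abcg8 lay below their expectation there.

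**Figure D4:**
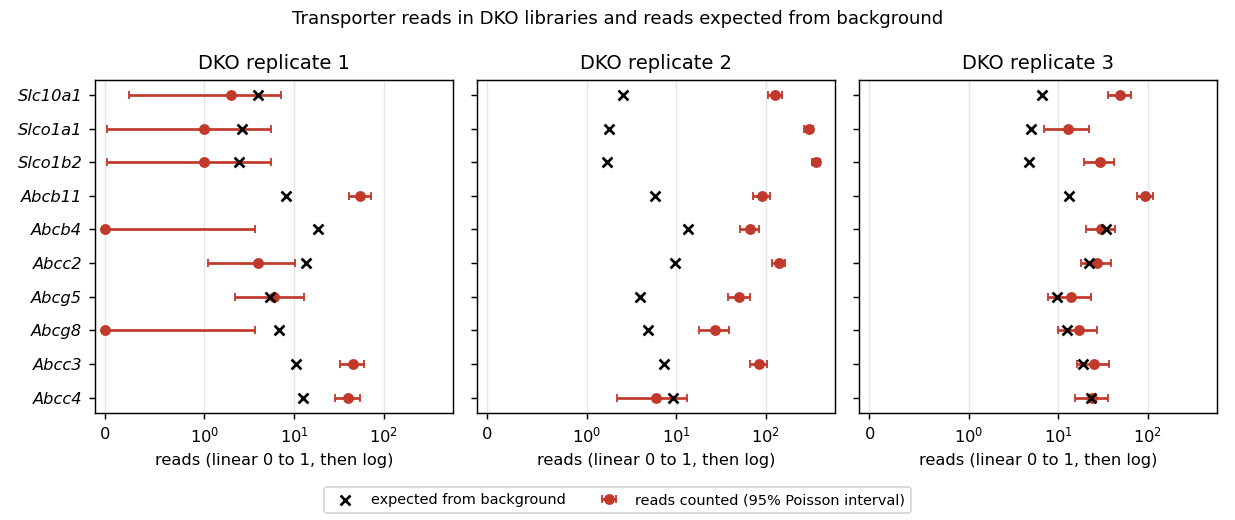
Reads counted for each transporter in the 3 DKO libraries (points, with 95% Poisson intervals) and reads expected from background (crosses), on an axis that is linear to 1 read and logarithmic beyond. Intervals lie right of the crosses for 9 genes in DKO replicate 2, for 4 in replicate 3 and for 3 in replicate 1.

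The background of a single gene is known only roughly. Among nearly silent genes with at least 5 expected reads, the ratio of counted to expected reads ran from 0 at the 10th percentile to 3.03 at the 90th in DKO replicate 1, to 2.56 in replicate 2 and to 2.73 in replicate 3. Its median was 0.182, 0.355 and 0.309 in DKO replicates 1, 2 and 3. The expectation is thus a mean that most of these genes fell short of. A gene at or below it can still exceed a typical nearly silent gene, and subtraction takes away more than most such genes held. The ratio of Abcc4 was 3.16, 0.645 and 1.04 in DKO replicates 1, 2 and 3, above the median in each. That of Abcb11 was 6.74, 15.5 and 6.98, above those 90th percentiles in each. The ratio of Slco1a1 in DKO replicate 3 was 2.60, within the spread of nearly silent genes. The ratios of Abcg5 were 1.12, 12.9 and 1.43, above those 90th percentiles in replicate 2 alone. Intervals cover counting error only, since the reads carry no molecular identifiers.

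A ratio within each library does not depend on the scaling between libraries. Reads of the 10 transporters per 1000 reads of 12 plasma protein genes of hepatocytes (Alb, apolipoproteins, fibrinogen chains and others) were 204, 47.8 and 39.7 in DKO replicates 1, 2 and 3 and 33.5, 36.8 and 40.5 in Control. DKO replicate 1 had only 756 plasma protein reads in all. The mean log2 ratio differed by 0.98 between the groups (-3.78 ± 1.29 in DKO and -4.76 ± 0.14 in Control, SD, n = 3 each; two-sided p = 0.2 by exact permutation). Without DKO replicate 1 the difference was 0.24 (p = 0.3 by exact permutation). It was 1.29 without DKO replicate 2 (p = 0.2 by exact permutation) and 1.42 without DKO replicate 3 (p = 0.1). With Alb alone as the denominator it was 1.22 (p = 0.1 by exact permutation). After subtraction of background reads it was 0.54 (p = 0.7 by exact permutation), with 152, 45.7 and 21.8 reads per 1000 in DKO replicates 1, 2 and 3.

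DKO replicate 2 held enough hepatocyte reads for the members to be compared on this ratio one by one. Slco1a1 had 11.5 reads per 1000 plasma protein reads there (95% Poisson interval 10.3 to 12.9), against 7.49 to 8.55 in Control. Slco1b2 had 13.8 (12.4 to 15.3) against 6.57 to 11.7, Abcg5 1.94 (1.44 to 2.55) against 0.778 to 0.960, and Abcc3 3.19 (2.55 to 3.95) against 1.71 to 1.83. Abcc2 had 5.32 (4.48 to 6.28) against 4.13 to 4.34. The intervals of these 5 genes and of Abcc4 lay above the Control range, but the 6 Abcc4 reads were fewer than the 9.30 expected from background, and its value after subtraction was 0. Slc10a1, with 4.87 (4.06 to 5.79), was within its Control range of 4.46 to 5.72, as was Abcb4 with 2.51 (1.94 to 3.19) in a range of 2.10 to 3.06. Abcb11 had 3.42 (2.75 to 4.21), below its Control values of 4.19 to 4.47, with an interval that reached into them. Abcb11 was the only one of the 10 below its Control range before subtraction of background reads. After subtraction 3 were below, namely Abcb11, Abcb4 (1.99 reads per 1000) and Abcc4. These are values of 1 library and are not replicated. The low value of Abcb11 did not recur in DKO replicates 1 and 3. It had 72.8 and 11.5 reads per 1000 there (65.2 and 9.94 after subtraction), above its Control range, with few plasma protein reads in replicate 1.

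**Figure D5:**
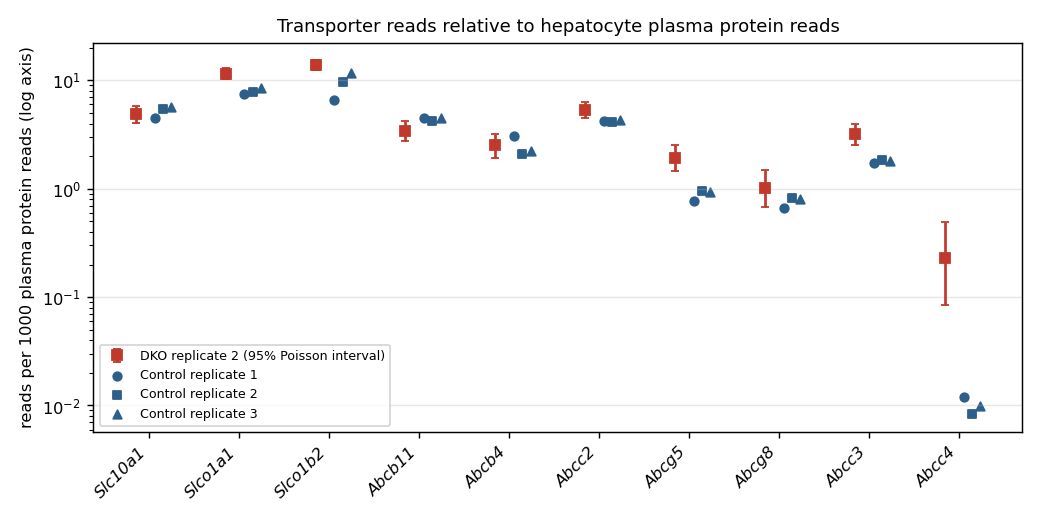
Reads of each transporter per 1000 plasma protein reads on a log axis, in DKO replicate 2 (squares with 95% Poisson intervals, left) and the 3 Control libraries (right). Most DKO replicate 2 values lie at or above the Control values, and Abcb11 lies below them.

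The make-up of the 10-gene pool differed between DKO libraries. Slco1b2 and Slco1a1 made up 28.9% and 24.1% of its reads in DKO replicate 2, against 19.6% to 28.8% and 21.1% to 22.4% in Control. In DKO replicate 3 the largest shares were Abcb11 at 29.0% and Slc10a1 at 15.3%, against 11.04% to 13.3% and 13.3% to 14.7% in Control. Reads left there after background subtraction gave 45.5% for Abcb11 and 24.2% for Slc10a1. In DKO replicate 1 Abcb11, Abcc3 and Abcc4 took 35.7%, 29.2% and 26.0%, where Abcc4 had at most 0.0360% in Control. Abcc3 had 29.2%, 6.68% and 7.79% of the raw reads in DKO replicates 1, 2 and 3, against 4.43% to 5.12% in Control. After subtraction of background reads these shares were 31.6%, 6.38% and 3.51%, so that replicate 3 lay below the Control range. Abcg5 had raw shares of 3.90%, 4.05% and 4.36% in the DKO libraries, against 2.29% to 2.61% in Control, and subtracted shares of 0.580%, 3.92% and 2.39%, above Control in replicate 2 alone. The ratio of Abcc3 to Abcc2 reads, the basolateral over the canalicular conjugate pump, was 11.2, 0.600 and 0.926 in DKO replicates 1, 2 and 3 and 0.403 to 0.443 in Control. After subtraction it was 0.587 in DKO replicate 2, still above Control, while no Abcc2 reads were left in replicate 1. The subtracted ratio of 1.25 in DKO replicate 3 cannot be read. Abcc3 had 25 reads there against 18.9 expected from background and Abcc2 had 27 against 22.1, with Poisson intervals that included the expectation.

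Of 22 further transporters of the hepatocyte 19 were tested, with 2 higher, 1 lower and a median log2 fold change of -1.84. Both counts are smaller shares than among all tested genes (31.3% higher, 12.8% lower). The multidrug resistance proteins Abcc1 and Abcc5 were called higher, with log2 fold changes of 4.73 (adjusted p = 0.00114 in edgeR) and 2.83 (adjusted p = 0.00626). Abcc1 had 15, 12 and 41 reads in the DKO libraries, where 29.9, 21.97 and 54.6 were expected from background, and 15, 6 and 14 in Control. Its reads were thus below the expected background in every DKO library, and it had no value after subtraction. Like Abcc4, it passed the filter on low counts only through the DKO libraries. Abcc5 had 22, 36 and 55 where 21.1, 15.5 and 38.7 were expected, and 137, 68 and 41 in Control, and its call was lost after subtraction (adjusted p = 0.264). Slc10a5, an orphan relative of Slc10a1, fell to 0, 4 and 0 reads in DKO, against 312, 235 and 266 in Control, a log2 fold change of -3.65 (adjusted p = 0.0285 in edgeR). That call was lost without Control replicate 1, 2 or 3 (adjusted p = 0.110, 0.0902 and 0.112) and on the abundant-gene scale (0.433). Atp8b1, the canalicular flippase whose loss causes familial cholestasis, had 32, 78 and 46 reads in DKO and 690, 449 and 420 in Control (log2 fold change 0.70, adjusted p = 0.367); it was chosen for its role after its values were seen.

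Of 19 listed regulators of these transporters 18 were tested, with 1 higher, 4 lower and a median log2 fold change of -2.07, where 31.3% of all tested genes were higher and 12.8% lower. Nr1h2, the sterol receptor LXRβ, fell to 0, 1 and 3 reads in DKO, against 608, 567 and 464 in Control (log2 fold change -4.81, adjusted p = 0.00165 in edgeR). Keap1, which holds back NRF2, a factor that raises Abcc2, Abcc3 and Abcc4, fell to 2, 1 and 10 reads in DKO, against 746, 765 and 641 in Control (log2 fold change -3.59, adjusted p = 0.00378). Klb, the coreceptor of FGF15 signalling on hepatocytes, fell to 1, 2 and 2 reads in DKO, against 243, 161 and 132 in Control (log2 fold change -2.81, adjusted p = 0.0171). On the abundant-gene scale the Nr1h2 call was lost (adjusted p = 0.328) and those of Keap1 and Klb turned to 1.00 and 0.66, without passing. The Klb call was also lost without Control replicate 1, 2 or 3 (adjusted p = 0.0783, 0.0687 and 0.0640). FXR itself (Nr1h4) had 0, 61 and 13 reads in DKO and 3261, 2737 and 2475 in Control (log2 fold change -2.68, adjusted p = 0.134); it too was picked for its role after its values were seen.

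Genes that anchor or deliver canalicular pumps had 3 higher and 5 lower members among 17 tested, with a median log2 fold change of -1.12, beside the same 31.3% higher and 12.8% lower over all tested genes. Stx3, a syntaxin of apical membrane fusion, rose, with 35, 27 and 135 reads in DKO and 99, 56 and 74 in Control (log2 fold change 3.54, adjusted p = 0.00257 in edgeR). Rab11a, a GTPase of the recycling endosomes that carry Abcb11, fell to 3, 9 and 21 reads in DKO, against 1052, 900 and 867 in Control (log2 fold change -2.58, adjusted p = 0.0143). Hax1, a binding partner of Abcb11, fell to 2, 9 and 18 reads in DKO, against 944, 739 and 684 in Control (log2 fold change -2.49, adjusted p = 0.0193). The calls of Rab11a and Hax1 were lost after background subtraction (adjusted p = 0.106 and 0.158), where the fold changes of -2.28 for Rab11a and -2.69 for Hax1 stayed about as large, and on the abundant-gene scale both turned to 1.74 and 1.59. They were also lost without Control replicate 1 or 3 (0.0513 and 0.0533 for Rab11a, 0.0753 and 0.0686 for Hax1), and that of Hax1 without Control replicate 2 (0.0621).

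Markers of other cells are given beside these genes. Over all tested genes 31.3% were called higher and 12.8% lower in edgeR. The shares were 35.3% and 30.7% in DESeq2, and 29.6% and 9.77% in limma-voom. Of 6 Kupffer cell markers 0 were called in edgeR (0 at an unadjusted p under 0.05), 2 in DESeq2 and 0 in limma-voom. Of 7 stellate cell markers 0 were called in edgeR (1 at an unadjusted p under 0.05), 3 in DESeq2 and 0 in limma-voom. Of 7 endothelial markers Pecam1 was higher and Fcgr2b lower in edgeR. Of 8 markers of bile duct cells, which also use Abcc3, 7 were tested, with 3 higher (Sox9, Epcam and Krt7) and 1 lower (Spp1). Their summed level was 131 to 236 CPM in DKO and 92.1 to 122 CPM in Control, and the defining marker Krt19 had 0, 1 and 8 reads in DKO and 35, 3 and 1 in Control. Krt7 had 2, 1 and 13 reads in the DKO libraries, below the 12.9, 9.17 and 23.3 expected from background. Reads of Sox9 and Epcam were more than the expected number in every DKO library, but those of Epcam were few. Epcam had 12, 5 and 50 reads in DKO replicates 1, 2 and 3, where 4.01, 2.86 and 7.26 were expected. Whether its reads in DKO replicates 1 and 2 exceeded background beyond counting error was not tested. Of the 6 kidney tubule markers 2 were tested and 1 was higher (Lrp2), with 134 to 194 CPM in DKO and 5.92 to 9.54 CPM in Control in sum. The defining tubule marker Umod had 0, 0 and 1 reads in DKO and none in Control. Markers of neurons, which liver barely holds, summed to 409 to 803 CPM in DKO and 24.5 to 29.3 CPM in Control. Their part in the Abcc4 result was not tested.

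Profiles over the 6 libraries were compared by the root-mean-square difference of log2 CPM, each profile centred on its own mean. Nearest to Slc10a1 were Echdc2 (0.05), Rnf130 (0.09) and H2-Q10 (0.10), and the nearest of the other members were Abcg8 (0.52) and Abcc2 (0.55). H2-Q10, a secreted class I molecule of the liver, had 6, 443 and 156 reads in DKO replicates 1, 2 and 3. Nearest to Abcc4 were Arhgap15 (0.15), Col4a6 (0.21) and Dach1 (0.21), genes with 27 reads or fewer in every library. The closest transporter to Abcc4 was Abcc3 at 3.17. All these distances are set largely by the gap between the groups and by the order of the DKO libraries.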

How the data were processed

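The authors deposited raw counts of reads for each Ensembl gene. Per the submitters' processing notes, STAR and HTSeq were used with the mm10 build. Tool versions, the strand setting and the annotation were not given in the sources used here. Per the labels' protocols, RNA was isolated with RNeasy kits and a company made, sequenced and processed the libraries. The 5 rows that name no gene held 95.3% to 97.3% of reads in DKO and 65.1% to 66.7% in Control libraries and were kept out of the library sizes and fits. Names came from a gene name table (42462 IDs matched, 884 not). GENCODE M21 (mm10) gave positions, exon lengths and base composition. No 2 libraries held identical values or agreed within sampling noise.

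All genes were tested with edgeR 4.0.16 (R 4.3.3), quasi-likelihood with robust fitting, TMM, filterByExpr and a threshold of 0.05 on two-sided p-values after Benjamini-Hochberg adjustment. Alternatives were DESeq2 1.42.0 on the same filtered genes, limma-voom (limma 3.58.1), other scalings and filters, background subtraction (whole reads, at least 0), the replicate number as a block, and omission of single libraries. The abundant-gene scale used nuclear protein-coding genes with over 30000 Control reads. Background rates were taken in 10 bins of GC content. The fits were tested on simulated data drawn from the Control profile, with the spread of Control libraries alone and no background reads. That test does not show how the fits behave on libraries like those of DKO. Members, gene lists and tests were chosen with earlier results of these data known. Named were all members, the targeted genes, up to 3 called genes per list with the smallest adjusted p, and the 3 genes nearest in profile to Slc10a1 and Abcc4. Genes named outside this rule are Nr0b2 and the markers, chosen after their values were seen, and those so described in the text.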

Additional observations from a re-analysis of the deposited data

Results flagged for a closer look

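Reads that aligned uniquely but outside annotated genes, a row of the tables that no comparison uses, made up 73.7%, 65.3% and 61.0% of all reads in DKO replicates 1, 2 and 3, against 37.8% to 40.6% in Control. They are given because they lie above every Control library. The expected background reads derived from nearly silent genes summed to 54.2%, 22.9% and 19.8% of gene reads in DKO replicates 1, 2 and 3. Their part in the transporter results beyond the subtraction described was not tested.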

How the results depend on the processing

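Against 0 transporters lower and 1 higher with TMM, the number lower was 7 in DESeq2 (30.7% of all genes tested), 6 with its size factors (23%), 1 in limma-voom (9.77%), 9 without a filter (15.4%), and 0 to 9 when 1 library was left out (4.05% to 26.7%; 4 without DKO replicate 1, 9 without DKO replicate 2). The number higher was 0 after background subtraction, where Abcc4 was not among the 9 tested. Calls over all genes numbered 6863 and, without a filter, 16127. On the abundant-gene scale the summed level of the 10 turned from a log2 ratio of -2.56 to 1.36, and fold changes turned to 2.70 for Abcb11, 0.00749 for Abcc2, 1.94 for Abcg5, 0.56 for Abcg8, 3.59 for Abcc3, 1.00 for Keap1, 0.66 for Klb, 1.74 for Rab11a, 1.59 for Hax1, 0.89 for Ctnnb1 and 3.90 for Jup, which alone among these passed, as higher (adjusted p = 0.0436 in edgeR); the cause was not tested. Same-numbered libraries deviated together with correlations of 0.12, 0.07 and -0.02, so the numbers were not taken as pairs, and a replicate block gave 1 transporter lower (Abcg8). A filter of 1 CPM in 3 libraries and no normalization factors left all 10 on their side of the threshold. The Slc10a5 and Klb calls were lost without normalization factors (adjusted p = 0.0555 and 0.0519 in edgeR), and that of Klb with the block (0.0861). In DKO replicate 1, members near 1 read could not be told from background at this depth.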
